A study of Mus musculus with 2 samples.

Results

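This section describes the microglia of the Control library, 10498 cells of 10687 Control barcodes that passed the limits on depth, gene number and mitochondrial RNA. Microglia are the resident macrophages of the brain. The hippocampus was taken 3 weeks postpartum from mice of the genotype Tmem119-tdTomato+/-, which carry a red fluorescent protein that reports the microglial surface protein Tmem119. Sorting by flow cytometry kept the Tmem119-positive cells, which went into a droplet-based 3′ single-cell library, in which each unique molecular identifier (UMI) stands for 1 captured transcript molecule. The study also made an FGR library, from mice with fetal growth restriction, which gave 8298 cells by the same limits and whose levels are not described here. Together both libraries held 19305 barcodes past the limits. There was 1 Control library, and the sources used here do not give the number of animals in it. None of the values below therefore has a replicate check, and variation among cells says nothing about variation among animals.

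A barcode was a member when it had at least 1500 UMIs, at least 200 genes, at most 10% of its UMIs from mitochondrially coded genes, and at least 50 UMIs summed over 7 rule genes. These were C1qa, C1qb, C1qc, Csf1r, P2ry12, Cx3cr1 and Tmem119. The members were thus chosen by measured values, so the presence of these 7 genes is a description and supports nothing. Members made up 98.2% of the barcodes that passed the other limits (95% Clopper-Pearson interval 98.0 to 98.5%). They held 53084733 of the 58988805 UMIs of the library. Members ranged from 1507 to 21589 UMIs per cell, with a median of 4680 UMIs and 2065 genes, and the median mitochondrial share was 1.94%. The same barcode occurred among the FGR members for 30 cells, or 0.286% of the members.

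On either side of the limit of 50 UMIs the barcodes were alike in depth and in the share of the rule genes. The 48 members with 50 to 54 rule UMIs had a median depth of 2204 UMIs, and the rule genes took a median of 2.35% of their UMIs. The 55 barcodes just under the limit, with 45 to 49 rule UMIs, had a median depth of 2052 UMIs and a median share of 2.29%. Of the 189 barcodes that were not members, 156 gave at least 1% of their UMIs to the rule genes, and these lay mostly at shallow depth. The remaining 33 barcodes, with under 1%, had a median depth of 3480 UMIs. They serve below as cells with few microglial transcripts, against which the share of cells holding a UMI of a gene can be set. They held RNA of other cell types, with 9730 CPM of vascular markers, so a UMI in them may be their own.

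**Figure D1:**
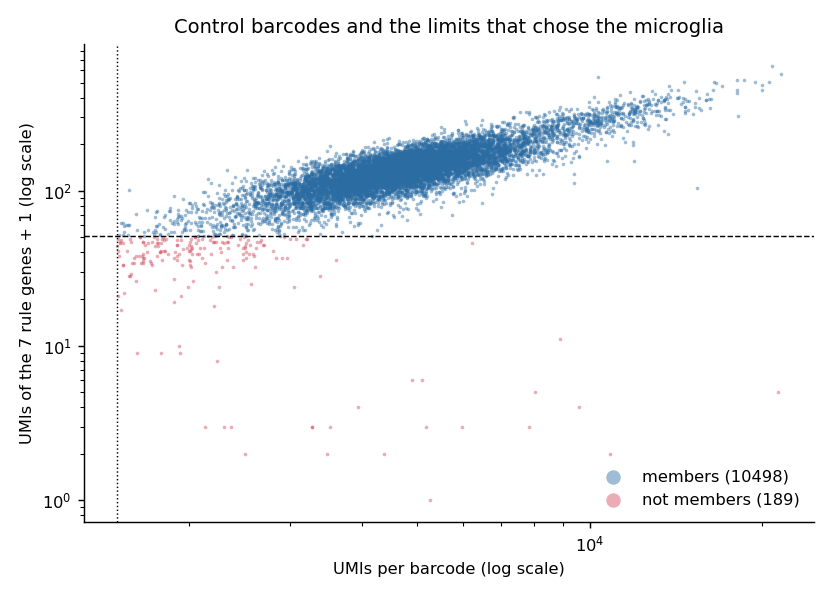
Each point is a Control barcode that passed the limits on UMIs, genes and mitochondrial share, with its UMI total on the horizontal axis and its UMIs of the 7 rule genes plus 1 on the vertical axis, both on log scales. The dashed line is the limit of 50 rule UMIs and the dotted line the limit of 1500 UMIs. The 10498 members form a single band whose rule UMIs rise with depth, and most of the 189 other barcodes lie just under the limit at low depth, while 33 lie far below the band.

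Microglia settle in the brain before birth and depend on signalling through the CSF1 receptor for survival. In juvenile hippocampus they take part in the removal of synapses and dying cells, for which complement proteins, purine receptors, phagocytic receptors and a large lysosomal system are used. Cells at rest carry a set of genes often called homeostatic, and immediate early genes, chemokines and other activation genes can be induced on top of it.

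The limit on the rule genes used only their sum, and the sort before it had already kept Tmem119-positive cells. The levels of the rule genes cell by cell are given here as a description. After each cell was thinned at random to 2000 UMIs, which 10431 members allowed and 67 shallower ones did not, C1qa had a median of 13 UMIs per cell and a 5th percentile of 6. Cx3cr1, the receptor for the neuronal chemokine fractalkine, had a median of 9, P2ry12, a receptor for ADP that steers processes towards injury, a median of 7, and Csf1r, the CSF1 receptor, a median of 5. Tmem119 was the least abundant, with a median of 2 and no UMI in 19.1% of thinned cells. Sall1, the transcription factor that sets microglia apart from other macrophages and that was not part of the selection, was seen in 88.9% of members and in 18.2% of the 33 barcodes with few microglial transcripts, at median depths of 4680 and 3480 UMIs.

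Levels are given as CPM, the count of a gene per 1000000 UMIs, of the UMIs summed over all members. Each transcript is counted at its 3′ end, so levels are not divided by transcript length. The 95% intervals are exact Poisson intervals, and all intervals here cover counting error only. At 100 CPM the interval reached 2.7% to either side. A UMI was recorded for 18889 genes, 8132 genes reached 10 CPM, 1683 reached 100 CPM and 137 reached 1000 CPM. The 10 highest genes held 12.7% of all UMIs and the 100 highest held 32.5%. Ribosomal protein genes held 9.39% and mitochondrially coded genes 2.25%.

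Leaving out mitochondrial, ribosomal and predicted genes, the most abundant transcript was Cst3, which encodes cystatin C, a secreted inhibitor of cysteine proteases, at 29730 CPM (interval 29684 to 29777). Next came the nuclear noncoding RNA Malat1 at 22724 CPM and Tmsb4x, which encodes an actin-binding peptide, at 15724 CPM. Actb, cytoplasmic actin, stood at 7230 CPM. These genes were followed by a mixture of complement, lysosomal and immediate early genes. C1qa had 6509 CPM (6487 to 6531), Jun 6137 CPM, C1qc 5487 CPM, Ctsd 5310 CPM and C1qb 4967 CPM. Among the 20 highest genes were also Sparc, a secreted protein that binds matrix, at 4632 CPM, Marcks, which binds actin and the membrane, at 3644 CPM, and Lgmn, a lysosomal protease, at 3482 CPM.

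The 7 rule genes together had 28650 CPM, or 2.87% of the UMIs. Complement C1q, the starter of the classical complement cascade, accounted for more than the 4 genes of surface proteins. Cx3cr1 had 4821 CPM (4803 to 4840), P2ry12 3413 CPM (3397 to 3429), Csf1r 2538 CPM (2524 to 2551) and Tmem119 915 CPM (907 to 923), and no neighbours in this order had overlapping intervals. The summed level was lower in deeper cells. In the members split by depth into 4 equal parts, from shallowest to deepest, it was 31087, 29713, 28626 and 27016 CPM. The limit on rule UMIs was a fixed count, so a shallow barcode needed a higher rule share than a deep one to be a member. The part of this selection in the fall with depth was not tested.

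Among complement genes the C1q chains stood far above the rest of the cascade. Itgam, a chain of complement receptor 3, had 791 CPM. C3ar1, the receptor for the C3a fragment, had 184 CPM and Itgb2, the partner chain of Itgam, 156 CPM. By contrast C3 itself had 0.0942 CPM, C4b 0.772 CPM, C2 0.226 CPM and Serping1, the C1 inhibitor, 0.132 CPM. C1rb was at 0 of the 53084733 UMIs, and a count of 0 allows up to 0.0565 CPM.

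The ligands of the CSF1 receptor were low beside the receptor. Csf1 had 35.1 CPM and Il34 0.132 CPM. Of the other cytokine receptors on the same list, Ifngr1, a chain of the interferon-gamma receptor, had 813 CPM, Il6ra 345 CPM and Il10ra 305 CPM, and Il1r1 had 0.829 CPM. The purine receptors followed P2ry12 at a distance, with P2ry13 at 470 CPM, P2ry6 at 218 CPM, P2rx7 at 125 CPM and Adora3 at 80.8 CPM. Ccr2, a chemokine receptor of blood monocytes, had 4.03 CPM, and both Fpr1 and Fpr2, receptors for formylated peptides, were at 0.

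Phagocytic receptors of the TREM2 pathway were abundant. The adaptor Tyrobp had 1757 CPM, its partner Trem2, which binds lipids and debris, 1692 CPM, and the second adaptor Fcer1g 1563 CPM. Sirpa, the receptor for the "do not eat me" signal Cd47, had 1028 CPM, the Fc receptor Fcgr3 596 CPM and the bridging-molecule receptor Mertk 460 CPM. Axl, a receptor related to Mertk, had 2.85 CPM. Pattern recognition was led by Ly86, a partner of the receptor Cd180, at 1142 CPM and Unc93b1, which carries Toll-like receptors to endosomes, at 972 CPM. The Toll-like receptors were lower, with Tlr7 at 173 CPM, Tlr2 at 67.5 CPM, Tlr3 at 63.6 CPM, Tlr4 at 60.0 CPM and Tlr9 at 5.52 CPM.

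The transcription factors that shape macrophages and microglia together had 10257 CPM. Maf led with 1322 CPM, followed by Mef2c at 1288 CPM, with Mef2a at 1024 CPM. Irf8 had 663 CPM, Sall1 543 CPM (537 to 550) and Spi1, which encodes PU.1, 370 CPM. The receptors for TGF-beta, the factor that maintains the microglial state, had 1113 CPM for Tgfbr1 and 327 CPM for Tgfbr2, and the ligand Tgfb1 had 299 CPM. Tgfb2 and Tgfb3 had 0.226 and 0.132 CPM. The receptor-regulated Smad2 and Smad3 had 53.4 and 55.5 CPM, below the inhibitory Smad7 at 589 CPM.

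The PU.1-type sequence GAGGAAGT was looked for on both strands in the 250 bases before the start of each gene, using RefSeq promoters on GRCm38.p6. Of the 7 rule genes, 4 matched an entry, and 1 of these, C1qc, held it. The same letters stood in 2.44% of all 32851 promoters of that length. The match in C1qc is shown because this gene was among the 10 most abundant. It lies at chr4:136893092-136893119 on the minus strand, and the capitals mark the sequence as its reverse complement, beginning 195 bases before the RefSeq start. The GENCODE M21 annotation starts C1qc elsewhere, at chr4:136893065, which is closer to the match.
C1qc: gacggcagacACTTCCTCattttggcac

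Lysosomal genes held 36188 CPM, 3.62% of all UMIs. Besides Ctsd and Lgmn these included Ctss, a cysteine protease of macrophages, at 3080 CPM, Laptm5 at 1924 CPM, Psap, the precursor of sphingolipid activators, at 1511 CPM and Ctsb at 1423 CPM. Of the 34 genes listed, 28 reached 100 CPM. The lipid genes were led by Apoe, the main lipid carrier of the brain, at 1465 CPM (1455 to 1476), with the cholesterol exporter Abca1 at 434 CPM. Lpl, which frees fatty acids, had 56.3 CPM, Cd36, a scavenger receptor, 0.170 CPM and Ch25h 0.377 CPM.

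Immediate early genes, which respond within minutes to many stimuli, had 36449 CPM summed over 32 genes, or 3.65% of all UMIs. The 7 rule genes had 28650 CPM in sum, and a list of 41 homeostatic surface and secreted genes had 86184 CPM. These are levels in sorted cells. No library of unsorted tissue was at hand, so the levels in the tissue itself cannot be given. The same holds for the chemokines and stress genes below. Jun was followed by Egr1 at 3790 CPM, Junb at 3598 CPM, Btg2, an antiproliferative gene, at 3073 CPM and Rhob, a small GTPase, at 2922 CPM. Fos had 1984 CPM and Atf3 582 CPM. Members of the nuclear receptor group differed, with Nr4a1 at 73.3 CPM and Nr4a2 at 0.641 CPM. In droplets of 10 to 100 UMIs, which hold free RNA, Jun had 4795 CPM, Egr1 3845 CPM and Fos 2077 CPM, so these transcripts were also found outside the cells. This was not particular to them, since the rule genes had 20312 CPM in the free RNA.

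Chemokine transcripts were few in kind. Ccl4 had 1658 CPM and Ccl3 786 CPM, and together they made up most of the 3155 CPM of the 19 genes listed. Ccl9 had 191 CPM, Ccl2 186 CPM, Ccl6 132 CPM and Ccl12 127 CPM, whereas Ccl5 had 1.19 CPM, Cxcl9 0.283 CPM and Cxcl10, an interferon-induced chemokine, 21.4 CPM. Inflammatory cytokines were low. Il1a had 141 CPM, Tnf 72.4 CPM, Il1b 7.95 CPM and Il6 6.57 CPM, and Il10 was at 0.

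Genes tied to damage-associated and developmental axon-tract microglia split by level. The ferritin chains Ftl1 and Fth1 had 2763 and 1888 CPM, Cd9, a tetraspanin, 856 CPM and Cd63, a lysosomal tetraspanin, 383 CPM. The genes more specific to those states were low, with Cst7 at 8.55 CPM, Igf1 at 6.76 CPM, Spp1 at 6.65 CPM, Itgax at 3.41 CPM and Gpnmb at 0.433 CPM. A UMI of Spp1 was seen in 1.26% of members and in 1 of the 33 barcodes with few microglial transcripts, or 3.03%. The 8 MHC class II genes had 229.5 CPM in sum, led by H2-DMa, which helps load peptides, at 125.5 CPM with an excess CV of 0.58, while the invariant chain Cd74 had 14.8 CPM and the surface chain H2-Aa 0.396 CPM. Class I had B2m, the light chain, at 1503 CPM and the heavy chains H2-K1 and H2-D1 at 403 and 278 CPM. These heavy chains belong to a family of near-identical genes, so their split is uncertain.

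Interferon-response genes had 592 CPM in sum over 31 genes, and Trim30a, at 111 CPM, was the only one of them to reach 100 CPM. Ifit3 had 4.63 CPM, Irf7 2.83 CPM and Oasl2 2.45 CPM. The proliferation list had 1516 CPM, with 5 of its 28 genes at 100 CPM or more, among them H2afz, a histone variant, at 370 CPM and the tubulin Tubb5 at 347 CPM. Top2a, which untangles DNA, had 6.29 CPM and Mki67, a marker of cycling cells, 4.63 CPM. UMIs of Top2a and Mki67 occurred in 0.705% and 0.514% of members and in 1 of the 33 barcodes each. Without the 6% of members with the most UMIs, Top2a had 3.34 CPM and Mki67 2.59 CPM. The catalytic chain of the phagocyte NADPH oxidase, Cybb, had 0.923 CPM, while its partner Cyba had 612 CPM and the cytosolic subunit Ncf1 had 344 CPM.

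Transcripts of other cell types were few in the members. Summed over each list of markers, members had 5.73 CPM of oligodendrocyte lineage genes, 37.6 CPM of vascular genes, 63.7 CPM of neuronal genes and 42.5 CPM of border macrophage genes. The 33 barcodes with few microglial transcripts had 837, 9730, 939 and 0 CPM of the same lists. They were picked for under 1% of UMIs from the rule genes, so a macrophage rich in those genes would not be among them. Of the border macrophage markers, Cd163, Lyve1 and Cd209f were at 0 in the members and Mrc1 supplied 40.4 CPM. Of the lymphocyte markers, Cd3e, Cd3d, Cd3g, Trac and Nkg7 were at 0, yet Ighm, the immunoglobulin mu heavy chain, had 207 CPM and was seen in 57.2% of members and in 15.2% of the 33 barcodes. Slc1a3, an astrocyte glutamate transporter, supplied 164 of the 200 CPM of astrocyte genes and was seen in 49.3% of members and in 15.2% of the 33 barcodes, while Aqp4 and Gfap had 1.32 and 0.980 CPM.

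RNA of myelin proteins had 186 CPM in the members and 8856 CPM in the free RNA. Mbp, the highest of them, had 85.3 CPM, and a UMI of it was seen in 18.6% of members and in 18.2% of the 33 barcodes. Over the list, the top 1% of thinned members held 20.5% of the myelin UMIs. Red blood cell genes had 111 CPM in members and 3680 CPM in the free RNA. Their UMIs were uneven, since 1% of the thinned members held 82.1% of them and 94.7% had none. At least 10 globin UMIs of 2000 were found in 19 members, and 1 member had 275. With free RNA taken off at 5% of UMIs, both Mbp and the globin gene Hbb-bs came to 0. Doublets were not called or removed, and the part of such barcodes in the variation below was not tested.

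Variation among members was measured as the excess coefficient of variation (CV), the spread of a gene's share of UMIs between cells, relative to its mean, beyond that which counting error gives. A value of 0 is counting error alone. Over the 1683 genes of at least 100 CPM the median excess CV was 0.399, with a 5th percentile of 0.217 and a 95th percentile of 0.716. A gene was called variable at an excess CV of at least 0.5, which 364 genes, or 21.6%, reached. An excess CV of at least 1 was reached by 39 genes. Members were selected on the rule genes, which bounds how far these can vary, so their values are descriptions only.

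None of the 7 rule genes was variable. Csf1r had an excess CV of 0.18, C1qc of 0.20, C1qb and C1qa of 0.24 each, Cx3cr1 of 0.25, Tmem119 of 0.33 and P2ry12 of 0.35. These were below the median of all genes. In the wider homeostatic list 5 of 39 genes of at least 100 CPM were variable, or 12.8%, a smaller share than the 21.6% of all genes. They were Cd9, Ctsb, Crybb1, Ctsz and Slc2a5, with Cd9 at 0.85, Ctsb at 0.72, Crybb1, which encodes a crystallin, at 0.64, Ctsz at 0.62 and Slc2a5, a fructose transporter, at 0.52. Laptm5 and Lgmn stood at 0.19 and 0.21. A smaller share of genes was variable at a higher minimum level, and the 41 genes of the homeostatic list had a median of 898 CPM. Level was not matched in these comparisons with all genes. Trem2, at 0.29, and Tyrobp, at 0.31, were as even as most of the phagocytic list, in which 1 of 10 genes was variable.

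**Figure D2:**
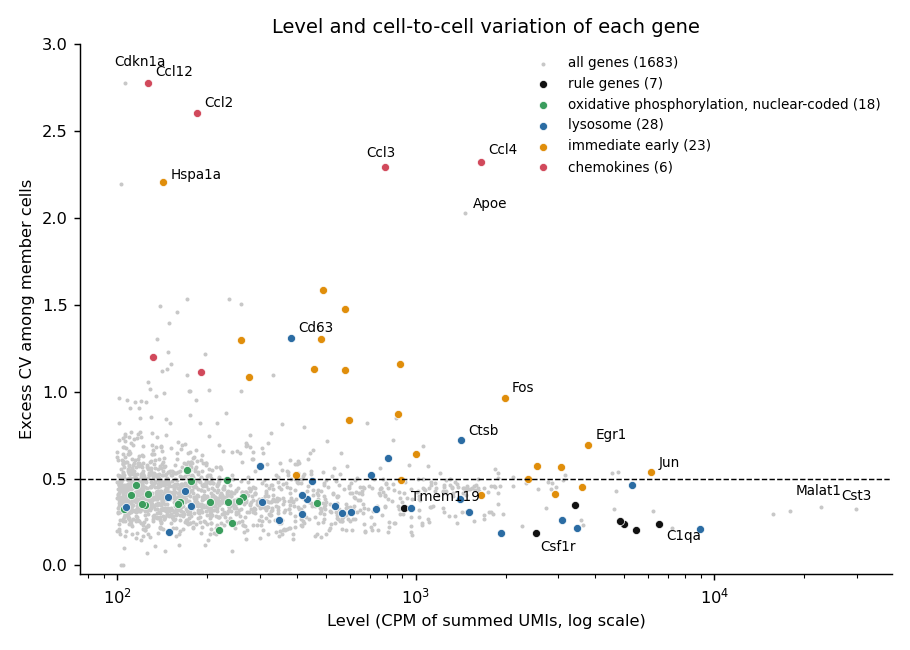
Each point is 1 of the 1683 genes of at least 100 CPM, with its level on a log horizontal axis and its excess CV among the 10498 members on the vertical axis; colours mark 5 gene lists and the dashed line is the limit of 0.5 for a variable gene. The rule genes lie between 0.18 and 0.35, the 6 chemokines lie between 1.11 and 2.78, and Apoe combines a level of 1465 CPM with an excess CV of 2.03.

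All 6 chemokine genes of at least 100 CPM were variable, against 21.6% of all such genes. Of the 6, 4 were among the 5 most variable genes of the library. Ccl12 had an excess CV of 2.78, Ccl2 of 2.60, Ccl4 of 2.32 and Ccl3 of 2.29, whereas Ccl6 and Ccl9 had 1.20 and 1.11. In thinned cells Ccl4 had a median of 0 UMIs, a 95th percentile of 17 and a maximum of 107, and the 10% of cells with the most held 66.4% of its UMIs. Over the whole chemokine list the median was 2 UMIs of 2000, 19.0% of cells had none, and 781 cells, or 7.49%, had at least 20. The top 10% of cells held 51.3% of the chemokine UMIs, against 14.0% for the rule genes, on which the cells were chosen. A list of few UMIs is more concentrated by counting alone, and the means were 6.14 and 58.3 UMIs. With counting error taken off, the excess CVs of the lists were 1.74 and 0.17. A UMI of Ccl4 was seen in 55.3% of members and in 39.4% of the 33 barcodes, and its level in free RNA was 2163 CPM, so a cell with few Ccl4 UMIs cannot be told apart from one with none of its own.

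Apoe was the most variable gene above 1000 CPM after Ccl4. Thinned members had a median of 1 Apoe UMI, a 95th percentile of 11, a 99th percentile of 21 and a maximum of 237, and 38.3% had none. The top 10% of cells held 50.03% of its UMIs and the top 1% held 11.7%. Cd63 was less variable, with an excess CV of 1.31. Apoe was at 1425 CPM and Cd63 at 403 CPM in the free RNA, close to their levels in members.

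**Figure D3:**
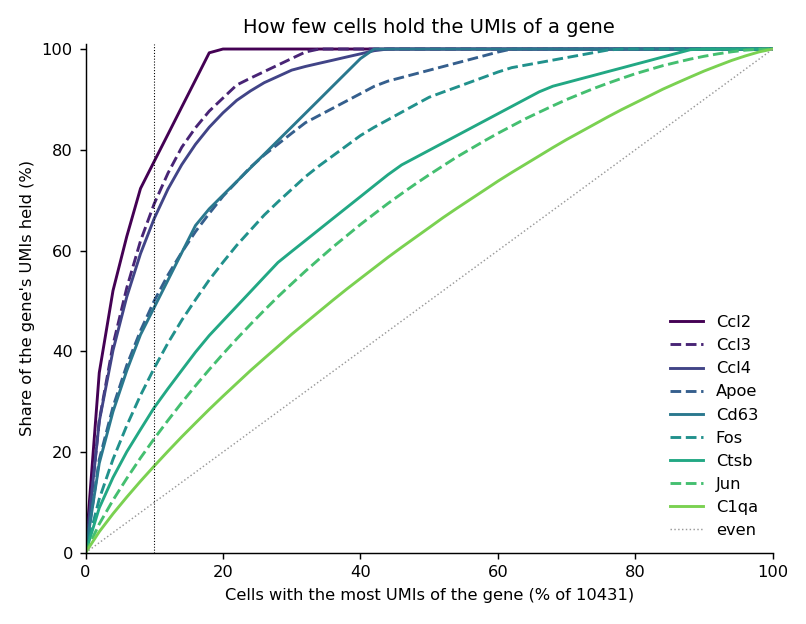
Cells were ordered for each gene by its UMIs after thinning to 2000, and the curve gives the share of that gene's UMIs held by the given percentage of the 10431 cells; the dotted diagonal is an even spread and the vertical dotted line marks 10% of cells. At that line Ccl2, Ccl3 and Ccl4 reach 77.7%, 69.3% and 66.4%, Apoe 50.03%, Fos 36.7%, Jun 22.7% and C1qa 17.2%. A low gene lies higher by counting alone, which the excess CV removes and this plot does not.

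Of the immediate early genes, 18 of 23 were variable, or 78.3%, against 21.6% of all genes. Rgs1, which curbs G-protein signalling, had an excess CV of 1.59, Atf3 of 1.48, Fosb of 1.30, Klf4 of 1.29, Klf2 of 1.16, Ier3 of 1.13 and the phosphatase Dusp1 of 1.12. Fos had 0.96, Egr1 0.69 and Jun 0.54, while Junb at 0.45 and Rhob at 0.41 were not variable. Thinned members held a median of 71 immediate early UMIs, with 5th and 95th percentiles of 26 and 132, and 1 to 215 over all cells. The top 10% of cells held 18.5% of these UMIs. The number of immediate early UMIs went with fewer ribosomal protein UMIs (Spearman rho -0.41) and a lower mitochondrial share (rho -0.37) across 10431 cells, and hardly with depth (rho -0.07). These cells share 1 library, and the part of these properties in the spread was not tested.

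Genes of stress responses were variable in larger shares than the 21.6% of all genes. In the heat shock list 6 of 9 genes were variable, led by Hspa1a at 2.21 and the co-chaperone Dnajb1 at 1.22, while the constitutive Hspa8 had 0.41. Hspa1a shares almost all its sequence with Hspa1b, so reads may be split between them. In the integrated stress response 7 of 8 were variable, with the factors Ddit3 at 0.90 and Atf4 at 0.54 and the phosphatase subunit Ppp1r15a at 0.75. Ddit3 sums more than 1 gene ID under its symbol. In the glucocorticoid list 5 of 7 were variable, led by the cell cycle inhibitor Cdkn1a at 2.78, with Tsc22d3 and Sgk1 at 0.82 each and Fkbp5 at 0.43. A UMI of Cdkn1a was seen in 21.1% of members and in 24.2% of the 33 barcodes, and the top 1% of thinned members held 25.6% of its UMIs.

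Among cytokine and NF-kB genes 8 of 10 were variable, against 21.6% of all genes of at least 100 CPM. Cd83, an activation marker, had an excess CV of 1.49 and Il1a of 1.12. Socs3, an inhibitor of cytokine signalling, had 1.01 and the inhibitor Nfkbia 0.72. The transcription factors gave 7 of 20, or 35.0%. Hif1a at 0.69, Sall3 at 0.66, Cebpa at 0.59, Smad7 at 0.57, Runx1 at 0.54 and Cebpb at 0.53 were among the variable ones, and Spi1 at 0.21, Sall1 at 0.29 and Mef2c at 0.29 were not. In the nuclear-coded genes of oxidative phosphorylation 1 of 18 was variable, Cox6c at 0.55, against 5 of 6 in glycolysis, where Pkm had 0.70 and Aldoa 0.64. None of 11 genes of CSF1 receptor signalling was variable, nor were the TGF-beta receptors, with Tgfbr1 at 0.33 and Tgfbr2 at 0.31.

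**Figure D4:**
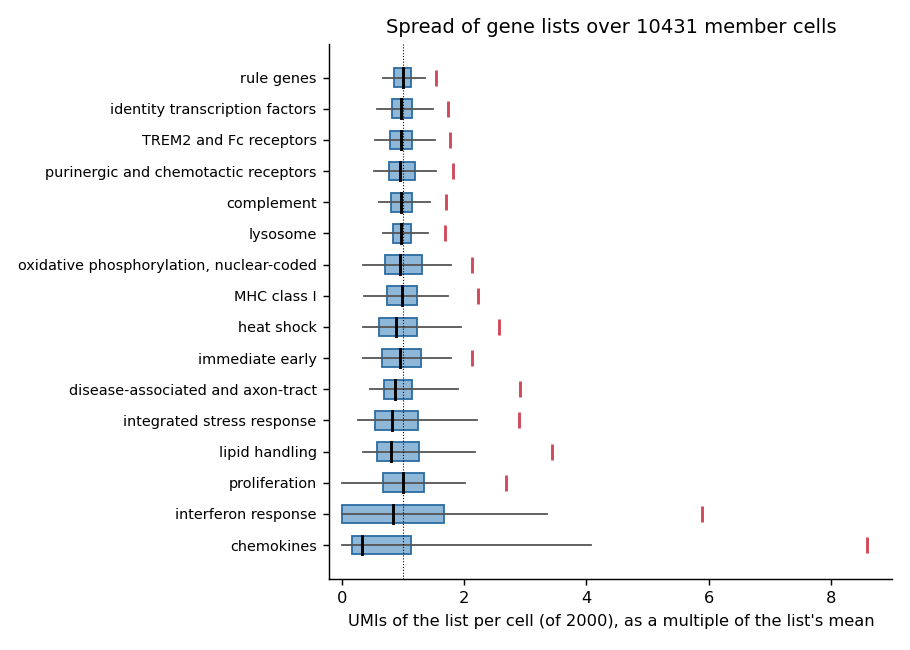
For each gene list the UMIs per cell, after thinning to 2000, are divided by the list's mean over the 10431 cells; boxes span the 25th to 75th percentile, thick lines are medians, thin lines span the 5th to 95th percentile and red ticks are the 99th percentile. The rule genes range from 39 to 79 UMIs between the 5th and 95th percentile around a mean of 58.3, whereas the chemokines have a median of 2, a 95th percentile of 25 and a mean of 6.14. Lists with a low mean are spread further by counting alone.

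Some programs were held by few cells. Of 2000 UMIs, at least 10 came from interferon-response genes in 66 members, or 0.633%, and the highest cell had 52. At least 20 UMIs of proliferation genes were found in 22 members, or 0.211%, with a maximum of 69. Hmgb2, a chromatin protein on the proliferation list, had an excess CV of 1.53. Its UMIs were not confined to few cells, and were seen in 46.7% of members and in 27.3% of the 33 barcodes. Hmgb2 had 171 CPM in members and 134 CPM in the free RNA, so a single UMI may not be the cell's own. At the other end were genes of general cell upkeep. Pfdn2, a chaperone subunit, and Mcrip1 showed no variation beyond counting error, though Mcrip1 had an excess CV of 0.30 after thinning to 2000 UMIs, and the membrane protein Vapa and the kinase Cdk9 had excess CVs of 0.08 each. Of the most variable genes outside the lists, Id2, an inhibitor of transcription factors, had 2.20, Hes1, a target of Notch, 1.53 and the metal-binding Mt1 1.46. Among nuclear-retained RNAs Neat1 had 1.51 and Kcnq1ot1 1.30. A UMI of Id2 was seen in 25.7% of members and 24.2% of the 33 barcodes.

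Genes that varied together were found by a correlation over the 10498 members corrected for counting error, among genes of at least 100 CPM and an excess CV of at least 0.3, with the rule genes kept in every case. The correction can carry a value slightly past 1. These correlations are descriptions over cells that share 1 library. Of 836571 gene pairs without ribosomal protein, mitochondrial and predicted genes, 20141 pairs, or 2.41%, had a correlation of at least 0.3, and 1783 had at least 0.5. The median over all pairs was 0.02. Ribosomal protein genes mostly moved together, with a median of 0.89 and a 5th percentile of 0.22 over their pairs.

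The rule genes fell into 2 groups. C1qa and C1qb had a correlation of 0.83, C1qb and C1qc of 0.79 and C1qa and C1qc of 0.78, and the C1q chains went next with Cst3 (0.62 for C1qb) and Tyrobp (0.62 for C1qb). The 4 genes of surface proteins correlated among themselves, from 0.43 for Csf1r and Cx3cr1 to 0.53 for P2ry12 and Tmem119. Between the C1q chains and these 4 genes the values ran from -0.02, for C1qb and P2ry12, to 0.19, for C1qa and Csf1r. Of 21 rule gene pairs 9, or 42.9%, reached 0.3, against 2.41% of all pairs. The members were chosen on the sum of these genes, so this count is a description. The 3 C1q genes lie side by side on chromosome 4, where C1qa spans chr4:136895917-136898803 on the minus strand in the GENCODE M21 annotation.

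Beyond the rule genes, Tmem119 went most with Selplg, the ligand of selectins, at 0.72, and P2ry12 with P2ry13 at 0.62 and with Cd164, a sialomucin, at 0.60. Cx3cr1 went most with P2ry13 at 0.50, and Csf1r with P2ry12 at 0.50 and the transporter Abca9 at 0.49. A block of 8 surface genes, P2ry12, P2ry13, Tmem119, Cx3cr1, Csf1r, Selplg, Siglech and Gpr34, had 24 of 28 pairs at 0.3 or more. Over all pairs the share was 2.41%. This block and the next were drawn up after their values were seen, so their counts are descriptions.

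A block of 10 lysosomal and phagocytic genes moved together more tightly. It held the proteases Ctsb, Ctsd, Ctsz and Ctsa, the membrane proteins Cd63, Cd68, Lamp1 and Cd9, the cholesterol-binding Npc2 and the progranulin gene Grn, and all 45 pairs lay between 0.42 and 0.82. Over the whole lysosome list 94 of 210 pairs, or 44.8%, reached 0.3, against 2.41% of all pairs, and the lowest was -0.17. Cd63 and Ctsz had 0.82, Ctsb and Ctsd 0.80 and Cd63 and Cd9 0.76. Against most of the surface genes the same genes ran the other way. Of the 80 pairs between the blocks 74 were below 0, with a median of -0.24. The lowest were P2ry12 with Ctsz at -0.47 and P2ry12 with Cd63 at -0.46. The 6 pairs above 0 were all of Gpr34, whose values ran from -0.11, with Npc2, to 0.08, with Ctsd. Tmem119 had -0.45 with Npc2 and -0.44 with Cd63. Lgmn, lysosomal and abundant, was too even to enter.

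**Figure D5:**
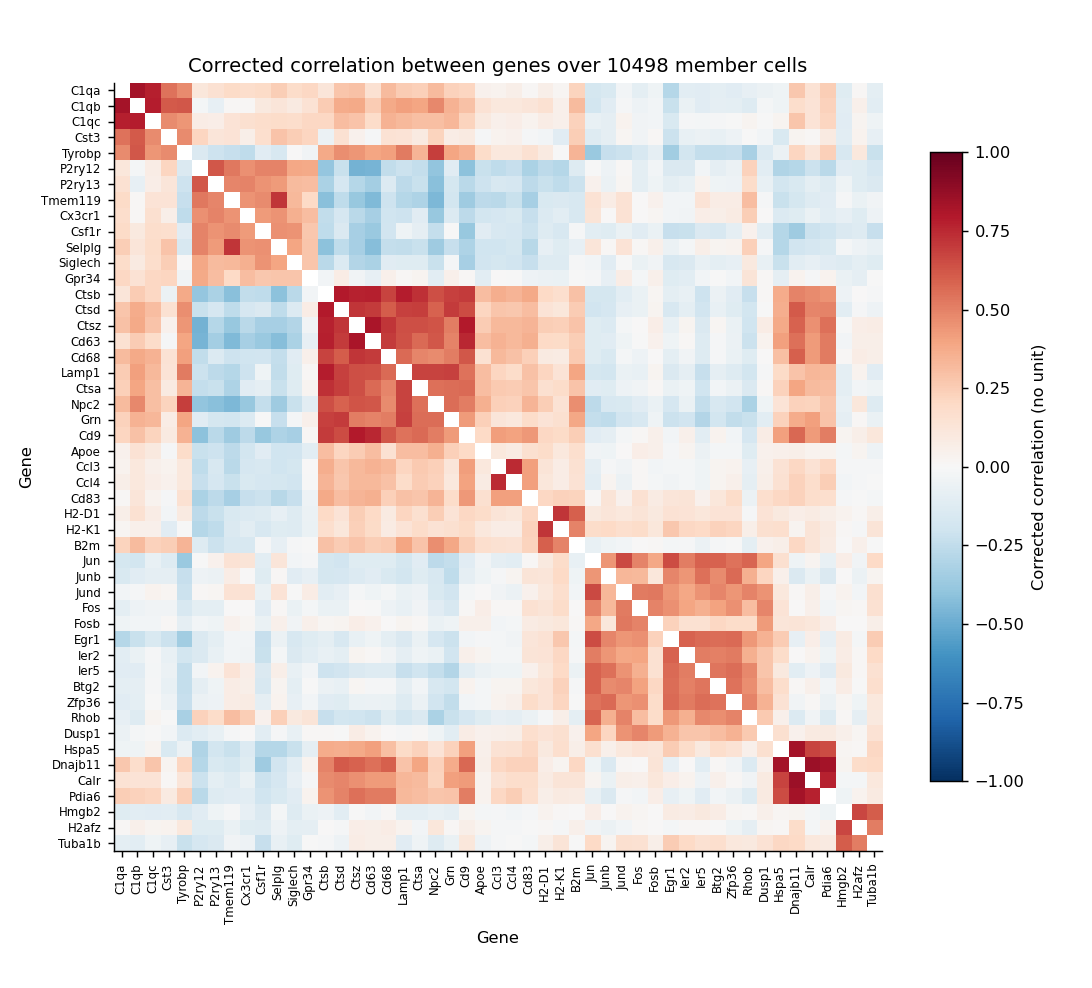
Colours give the corrected correlation over the 10498 members for each pair of 49 genes, red for positive and blue for negative values, with the diagonal left white. Blocks along the diagonal are the C1q chains with Cst3 and Tyrobp, the surface genes, the lysosomal genes and Ccl3 with Ccl4. Further along are the MHC class I genes, the immediate early genes, the endoplasmic reticulum chaperones and Hmgb2 with H2afz and Tuba1b. The lysosomal genes are blue against the surface genes other than Gpr34, with a lowest value of -0.47.

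The C1q block was not opposed to the lysosomal genes. Over the 50 pairs between them the median was 0.30 and 48 were above 0. Tyrobp had 0.69 with Npc2. Apoe, though highly variable, had no strong partner, with 0.36 for Npc2, 0.31 for Cd63 and -0.26 for Tmem119. Abca1 and Abcg1, both cholesterol exporters, had 0.62.

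Ccl3 and Ccl4 had a correlation of 0.75, and each went next with Cd83 at 0.41 and Cd9 at 0.41 to 0.42. They were lower where most of the surface genes were higher, with -0.27 for Ccl3 and Tmem119 and -0.23 for Ccl4 and P2ry12. The other chemokines followed them less. Ccl2 had 0.17 with Ccl4 and 0.16 with Ccl12, and 1 of 15 chemokine pairs, or 6.67%, reached 0.3, against 2.41% of all pairs. Ccl3 lies at chr11:83647844-83649355 on the minus strand and Ccl4 at chr11:83662584-83664683 on the plus strand, so the 2 genes lie close together.

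The immediate early genes also moved together. Over the whole list 82 of 253 pairs, or 32.4%, reached 0.3, against 2.41% of all pairs. The list had a median of 0.21 and a lowest value of -0.14. Among 15 of them, picked after their values were seen, 66 of 105 pairs reached 0.3 and all were above 0. Jun had 0.66 with Jund and 0.65 with Egr1, and Fos had 0.52 with Jund, 0.50 with Fosb and 0.50 with Jun. The same 15 genes had medians of -0.02 with the surface gene block, -0.07 with the C1q block and -0.07 with the lysosomal block. Jun was lowest where nuclear-coded mitochondrial genes were high, with -0.59 for Ndufa13 and -0.50 for Cox4i1. Over whole lists, the immediate early genes went with cytokine and NF-kB genes at 0.44, heat shock at 0.37, the integrated stress response at 0.37, the glucocorticoid response at 0.36, nuclear-retained RNA at 0.32 and transcription factors at 0.31, with genes in both lists left out. They had -0.58 with oxidative phosphorylation, and transcription factors had -0.69 with it. The nuclear-retained RNAs, Malat1 among them, had -0.57 with oxidative phosphorylation, and their UMIs had a Spearman rho of -0.44 with ribosomal protein UMIs. The part of the mix of nuclear and cytoplasmic RNA in these values was not tested.

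Chaperones of the endoplasmic reticulum formed a further block, picked out after its values were seen. Hspa5, which encodes BiP, the main chaperone there, had 1057 CPM and an excess CV of 0.69. It went with Dnajb11, a co-chaperone, at 0.83, Manf at 0.73, Calr, a lectin chaperone, at 0.67, Pdia6, a disulphide isomerase, at 0.65, Sdf2l1 at 0.64 and Hsp90b1 at 0.63. These genes are textbook targets of the unfolded protein response, in which ATF6 binds the endoplasmic reticulum stress response element, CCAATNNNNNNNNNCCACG, where N is any base. This sequence was looked for on both strands in the 250 bases before the start of Hspa5 and its 12 closest genes, of which 10 matched a RefSeq entry. It stood in 4 of these 10 and in 37 of all 32851 promoters, or 0.113%.
The matches are shown because they are what these promoters share in letters, with the element in capitals and 5 bases to either side, 5′ to 3′ along the gene. Hspa5 lies on the plus strand at chr2:34772020-34772048, Calr on the minus strand at chr8:84847070-84847098 and Pdia6 on the plus strand at chr12:17266486-17266514. Hsp90b1, on the minus strand, holds the element in both directions, at chr10:86705633-86705661 and chr10:86705528-86705556. All are on GRCm38.p6. In Calr and in the second match of Hsp90b1 the capitals read as the reverse complement.
Hspa5: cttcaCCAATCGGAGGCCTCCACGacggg
Calr: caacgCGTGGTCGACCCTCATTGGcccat
Pdia6: agagaCCAATGAAAGGCGGCCACGgcgtg
Hsp90b1, first: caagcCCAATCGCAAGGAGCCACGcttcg
Hsp90b1, second: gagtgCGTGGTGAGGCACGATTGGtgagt
The first base of the element stood 65 bases before the start of Hspa5, 162 before that of Calr, 98 before that of Pdia6, and 212 and 107 before that of Hsp90b1. A match of letters is a description and shows no binding.

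Smaller sets also moved together. H2-D1 and H2-K1 had 0.72 and each went with B2m, at 0.60 and 0.50, though reads of the near-identical heavy chains may be shared. Hmgb2 went with H2afz, a histone variant, at 0.67 and with Tuba1b at 0.61. In glycolysis Aldoa and Pkm had 0.75 and Aldoa and Gapdh 0.72. Of the genes of oxidative phosphorylation 114 of 120 pairs reached 0.3, with a median of 0.49. Of the transcription factors 2 of 136 pairs reached 0.3, or 1.47%, near the 2.41% of all pairs. They were Mef2a with Ets1 at 0.36 and Mef2a with Ikzf1 at 0.33. The 10 highest pairs overall were genes of translation, respiration and the endoplasmic reticulum, such as Eif3f with Use1 at 1.02 and Manf with Dnajb11 at 0.95.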

How the data were processed

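Each deposited matrix gives a raw count of UMIs for every gene and droplet, unscaled and unfiltered. Its header names Cell Ranger 4, per the file headers, while the submitters' processing notes list Cell Ranger 3.0, Seurat 5.0 and mm10. The labels name version 2 of the 3′ kit. The sources used here do not say whether counting used strand, so overlapping and antisense genes cannot be told apart. The deposited feature and barcode names are other, non-numeric columns.

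Of 32285 gene IDs, 32235 were found in GENCODE M21 (GRCm38), and 38 symbols with more than 1 ID were summed. Counts were summed over members and scaled to CPM. Levels have exact Poisson intervals and shares exact Clopper-Pearson intervals, at 95%. Excess CV and corrected correlations are moment estimates with each cell's UMI total as an offset, and the calculation was checked on simulated data with known answers. Free RNA is the sum of 75871 barcodes of 10 to 100 UMIs. Cells were not clustered, no doublet caller was run, and no test between groups was made. Python 3.11.15, numpy 2.4.6, scipy 1.17.1 and pandas 2.3.3 were used.

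The members and the 37 gene lists were chosen with earlier results of these data known. Genes named are the 7 rule genes, members of the lists (foremost the 4 of highest level and the 2 of largest excess CV in each), the 20 of highest level, the 20 of largest and 10 of smallest excess CV, the 5 closest partners of each rule gene and the 10 highest pairs. Other partners, the surface gene, lysosomal and immediate early blocks and the chaperones were named after their values were seen. Alternatives covered the limits on cells, thinning, scaling, free RNA, the minimum level and the threshold for variable genes. A few genes are not reported here.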

Additional observations from a re-analysis of the deposited data

How the results depend on the processing

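Of 54 recomputed counts of members, genes, gene pairs and lists, 48 stayed within 1.5 times the value reported. The exceptions came from the thresholds and from thinning. The 364 variable genes became 1212 (35.5% of genes) at a minimum level of 50 CPM and 112 (15.1%) at 200 CPM, and 840 or 72 when a variable gene needed an excess CV of 0.4 or 0.75. Thinning to 2000 UMIs raised the gene pairs at a correlation of at least 0.3 to 49403, against 20141, and those at 0.5 to 8053, against 1783; the cause was not tested. Excess CVs were recomputed for 266 genes of the lists or named by rank, and 21 crossed 0.5 under at least 1 alternative, Junb among them at 0.50 after thinning. Of 60 gene pairs recomputed, C1qb with P2ry12, near 0 throughout, changed sign (-0.03 to 0.02), and 5 fell under 0.3 in size, to 0.27 for Apoe with Npc2, -0.28 for Tmem119 with Npc2 and 0.22 for Mef2a with Ikzf1 after thinning, and to 0.27 for Apoe with Cd63 and 0.30 for Mef2a with Ets1 without the 6% of members with the most UMIs. Of 636 levels recomputed 87 moved by over 1.5 times, and none of these was of the 270 at or above 100 CPM. Leaving those members out, a stand-in for doublets, gave 437 variable genes and 1540 pairs at 0.5. No paired analysis was possible because the members come from 1 library. No replicate could be left out. At 100 CPM a member held under 1 UMI on average, so single cells cannot be placed by 1 such gene.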
